A study of Homo sapiens with 3 samples.

Results

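The ID genes and the BMP feedback genes were followed in HEK293T cells, a cell line from human embryonic kidney that makes the large T antigen of SV40. The 7 genes, ID1, ID2, ID3, ID4, SMAD6, SMAD7 and BAMBI, were chosen by name as a family, with earlier results of these arrays known, so the values that follow are a description. They are 7 of 22395 genes with a named probe set, and all 7 passed the level filter that 11198 genes passed. A gene with several probe sets was to be read from the one with the highest mean over the 3 arrays, but each of the 7 genes had 1 probe set, so no choice was made for them. The probe sets were 16912362 for ID1, 16876822 for ID2, 16683377 for ID3, 17005223 for ID4, 16802232 for SMAD6, 16855127 for SMAD7 and 16703563 for BAMBI.

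Affymetrix arrays were run on biotin-labelled cRNA from 3 cell populations: cells with the TRAF7 G536S mutant, cells with TRAF7 wildtype, and cells with the empty pCDF1 vector. All 3 were made by lentiviral transduction and kept under puromycin, so the vector backbone and the drug selection are shared, and the cells' own TRAF7 gene was not stated to be removed. Whether a population was a pool or a clone is not given. TRAF7 is a RING-finger E3 ubiquitin ligase, and G536S is a missense change in its WD40 repeats. There was 1 array per group, so values are log2 signals of single arrays, differences carry no standard error or p-value, and a difference holds that between the cultures and arrays as well as that between the constructs.

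Bone morphogenetic proteins (BMPs) bind receptor pairs that phosphorylate SMAD1, SMAD5 and SMAD9. These join SMAD4, enter the nucleus and switch on a small set of direct targets, of which ID1, ID2 and ID3 are the standard readout. ID proteins hold a helix-loop-helix without a DNA-binding region, so they pair with E proteins and keep them and their tissue-specific partners off DNA. SMAD6, SMAD7 and BAMBI are targets that act back on the pathway: the inhibitory SMADs block receptors and SMAD complexes, and BAMBI is a decoy receptor without a kinase.

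The label check came first. TRAF7 read 7.35 in G536S cells, 8.11 in wild-type cells and 5.66 in empty vector cells on the log2 scale. It was thus 1.69-fold lower in G536S than in wild-type cells. The constructs differ in TRAF7 signal as well as in sequence, and the part of each in the differences between them was not tested. The sources used here do not say which part of the TRAF7 transcript its probe set reads. The median of all probe sets was 1.01, 1.02 and 1.04 on the same arrays, and the highest value was between 12.1 and 12.6. The members, at 1.93 to 3.53, thus lay in the lower part of the scale, though above the 75th percentile of probe sets (1.73 to 1.86). Differences can be compressed at low signal, which was not measured here. Of 8 listed markers of HEK293T cells, 7 were measured and 5 passed the filter. The neurofilament NEFL read 5.62, 6.26 and 6.01 and the intermediate filament VIM 4.74, 5.10 and 4.34 in G536S, wild-type and empty vector cells. VIM was thus 1.69-fold higher in wild-type than in empty vector cells and NEFL 1.56-fold lower in G536S than in wild-type cells, and the part of these shifts in the results was not tested. The keratin KRT8 stayed between 0.85 and 0.98, near the array median. No endothelial marker passed the filter (5 measured, 0.81 to 1.02), and COL1A1 of 6 fibroblast markers and CD68 of 5 leukocyte markers were the ones that did. The means of COL1A1 (2.55) and CD68 (2.42) exceeded those of KRT18, LHX1 and PAX2, so passing the filter is weak evidence of cell type. As in any bulk sample, fewer cells that express a gene and less RNA per cell cannot be told apart.

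The stretches of 250 bases upstream of the annotated start are shown for the 6 genes with 1 annotated start site, because SMAD complexes are known to act at the promoters of several of these targets. They come from RefSeq (GRCh38.p14), which matched all 7 members, and run 5′ to 3′ on the gene's strand. Capitals mark the GC-rich SMAD1/5 site (GGCGCC or GGAGCC), the SMAD binding element (CAGAC), its palindrome (GTCTAGAC), each searched on both strands, and the TATA box (TATAAA, gene strand).
ID1, chr20:31605039-31605288, plus strand: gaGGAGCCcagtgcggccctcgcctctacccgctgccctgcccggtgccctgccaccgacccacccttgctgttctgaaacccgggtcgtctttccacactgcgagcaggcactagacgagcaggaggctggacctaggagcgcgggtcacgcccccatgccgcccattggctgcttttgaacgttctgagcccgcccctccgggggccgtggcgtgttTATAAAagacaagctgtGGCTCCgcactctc
ID2, chr2:8681806-8682055, plus strand: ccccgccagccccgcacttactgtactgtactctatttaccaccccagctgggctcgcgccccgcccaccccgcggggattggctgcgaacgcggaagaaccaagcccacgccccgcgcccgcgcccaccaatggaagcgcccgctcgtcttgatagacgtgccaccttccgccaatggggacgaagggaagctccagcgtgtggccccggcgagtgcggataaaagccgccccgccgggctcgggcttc
ID3, chr1:23559502-23559751, minus strand: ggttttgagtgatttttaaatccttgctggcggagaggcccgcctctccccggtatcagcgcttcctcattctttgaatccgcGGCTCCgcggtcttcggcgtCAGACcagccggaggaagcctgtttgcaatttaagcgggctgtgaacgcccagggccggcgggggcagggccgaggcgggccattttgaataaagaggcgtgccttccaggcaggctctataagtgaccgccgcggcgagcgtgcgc
ID4, chr6:19837120-19837369, plus strand: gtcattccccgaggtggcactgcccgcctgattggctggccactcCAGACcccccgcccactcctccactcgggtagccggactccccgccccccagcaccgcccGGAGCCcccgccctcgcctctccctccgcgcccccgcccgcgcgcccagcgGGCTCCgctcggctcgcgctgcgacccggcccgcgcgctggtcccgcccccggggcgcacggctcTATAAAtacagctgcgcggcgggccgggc
SMAD6, chr15:66701986-66702235, plus strand: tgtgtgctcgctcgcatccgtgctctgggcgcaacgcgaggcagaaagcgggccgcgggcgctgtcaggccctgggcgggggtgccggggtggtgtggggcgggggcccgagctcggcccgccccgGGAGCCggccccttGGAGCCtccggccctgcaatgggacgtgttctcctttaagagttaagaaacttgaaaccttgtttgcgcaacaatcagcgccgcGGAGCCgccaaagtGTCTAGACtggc
BAMBI, chr10:28677271-28677520, plus strand: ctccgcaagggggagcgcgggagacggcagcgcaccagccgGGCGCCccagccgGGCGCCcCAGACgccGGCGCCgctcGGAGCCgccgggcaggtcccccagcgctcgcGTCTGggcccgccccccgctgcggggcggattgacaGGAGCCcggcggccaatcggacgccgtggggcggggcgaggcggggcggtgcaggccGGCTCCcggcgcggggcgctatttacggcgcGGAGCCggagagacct

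The TATA box stood in the ID1 window, starting at -31 from the start site, and in the ID4 window, at -29, against 6.80% of 35116 windows of the same length. It also stood at -35 in the window of the second SMAD7 start site. GGAGCC or its reverse complement occurred in 30.6% of all windows. ID4 held 2 such matches, at -145 and -94, ID1 held 2, at -248 and -14, and ID3 held 1, at -167. SMAD6 held 3, BAMBI 4 and the third SMAD7 window 1. The ID2 window held 0 of these motifs. Sequence outside the windows was not searched for any of the genes. A window without a match thus does not show that the gene lacks a SMAD site, and the matches listed need not be all that a gene has. GGCGCC, found in 16.4% of windows, occurred 3 times in BAMBI and in no other window of the 7 genes. The palindrome stood at -12 in SMAD6, against 0.182% of all windows. CAGAC, present in 38.0% of windows, was found once in ID3 and ID4 and 2 times in BAMBI. No match overlapped another. For SMAD7, RefSeq lists 3 start sites, and their windows held 2, 1 and 0 CAGAC matches. GC content was 81.2% in BAMBI, 78.8% in ID4, 69.2% in ID2, 68.0% in SMAD6, 66.0% in ID1 and 62.0% in ID3. The SMAD7 windows held 48.0%, 58.4% and 48.4%, and the median over all windows was 58.0%. The shares over all windows were not adjusted for GC content, so no excess of a motif is read from them. A match describes the letters of a window, not a bound site.

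ID4 was the member furthest from the vector array with either construct. It read 3.53 in G536S cells, 3.42 in wild-type cells and 1.93 in empty vector cells. The signal was thus higher with either form of TRAF7 than with the vector alone, by 1.60 with G536S (3.04-fold) and by 1.49 with wild type (2.81-fold). Only 17 of the 11198 genes had a higher difference between G536S and empty vector, and 12 between wild type and empty vector. Between the constructs ID4 differed by 0.11, well inside the central spread of all genes in that comparison (robust SD 0.226). ID4 is the family member known from neural and mammary progenitor cells, where it restrains differentiation factors of the bHLH class.

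ID2 went the other way. Its signal was 1.93 in G536S cells and 2.02 in wild-type cells, against 2.57 in empty vector cells. The difference was -0.64 for G536S (1.56-fold lower) and -0.55 for wild type (1.47-fold lower), so the first lay just past the 1.5-fold line of 0.585 and the second just short of it. Genes with a lower difference made up 1.63% of all genes for G536S and 2.04% for wild type. ID2, an ID protein widely expressed in progenitors and lymphoid cells, has a pseudogene copy, ID2B, whose own probe set read 0.89 to 0.96 on the 3 arrays, below the array medians.

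ID3, like ID2, was highest on the vector array. It read 2.26 in G536S cells, 2.24 in wild-type cells and 2.58 in empty vector cells, which gave -0.31 for G536S and -0.33 for wild type against the vector. Both are lower than the median gene, and neither reached 1.5-fold. The constructs differed by 0.02 for this gene, a classic immediate target of BMP signalling.

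ID1 was the ID gene with the widest distance between the constructs. It read 2.97 in G536S cells, 3.35 in wild-type cells and 3.28 in empty vector cells. The wild-type and empty vector arrays were close to each other, at 0.07, and the G536S array was lower than both, with differences of -0.38 from wild type and -0.31 from the vector. The sign of the 0.07 turned under quantile normalization (-0.09) and cyclic loess (-0.05). A difference lower than that of ID1 between G536S and wild type was seen in 6.34% of genes. ID1 is a widely used reporter of BMP and ALK1 signalling.

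**Figure D1:**
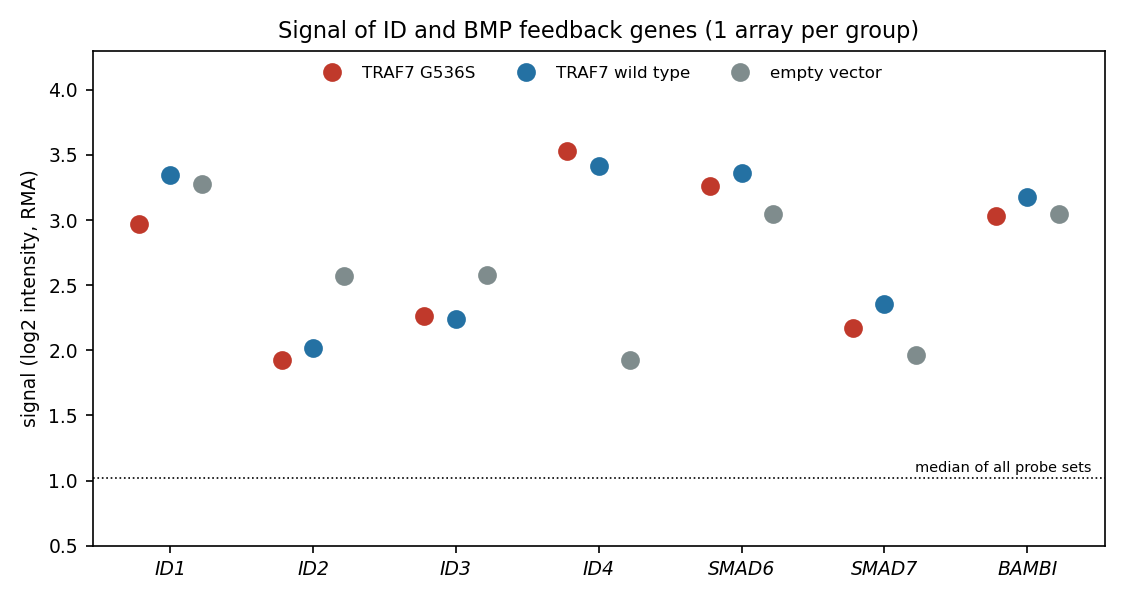
Signal (log2 intensity) of the 7 genes on the y axis, with 1 point per array for G536S, wild-type and empty vector cells. ID4 stands at 3.53 and 3.42 with the TRAF7 constructs and at 1.93 with the vector, while ID2 and ID3 are highest with the vector. The dotted line is the mean of the 3 array medians.

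The inhibitory SMADs read higher with the constructs, by less than 1.5-fold. SMAD6, which favours BMP receptors and SMAD1 as its targets, read 3.26 in G536S cells, 3.36 in wild-type cells and 3.05 in empty vector cells. SMAD7, which acts on both BMP and TGF-beta receptors and recruits SMURF ligases to them, read 2.17, 2.36 and 1.96 on the same arrays in that order. Against the vector, the differences were 0.21 for G536S and 0.31 for wild type for SMAD6, and 0.21 and 0.39 for SMAD7. In either gene the wild-type array was the highest, the G536S array lay between, and the constructs differed by -0.10 for SMAD6 and -0.19 for SMAD7. The median gene was itself higher by 0.10 with G536S and by 0.08 with wild type, so relative to it the shifts were 0.12 and 0.23 for SMAD6 and 0.11 and 0.31 for SMAD7. Of all genes, 20.0% had a higher difference than SMAD6 and 13.3% a higher one than SMAD7 between wild type and the vector. Both genes were above the vector with both constructs under the 3 alternative scalings, quantile normalization, median centring and cyclic loess, with lowest values of 0.067 with G536S and 0.16 with wild type for SMAD6, and of 0.054 and 0.25 for SMAD7.

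BAMBI, the decoy receptor, was nearly level. It read 3.03 in G536S cells, 3.18 in wild-type cells and 3.05 in empty vector cells. The differences were -0.15 between the constructs, -0.02 for G536S and 0.13 for wild type against the vector. The sign of the wild-type difference turned under quantile normalization (-0.02), and that of the G536S difference under median centring (0.01).

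The 7 members did not share a direction against the vector. With G536S, 1 of 7 was at least 1.5-fold higher, ID4, where 6.07% of all genes were, and 1 of 7 was 1.5-fold lower, ID2, where 2.08% of genes were. With wild type, 1 of 7 was 1.5-fold higher, ID4 again, where 5.42% of genes were, and 0 of 7 were 1.5-fold lower, where 1.79% of genes were. Since the genes were chosen with these comparisons known, nothing is read from these shares. The split of all genes depended on the scaling. Under quantile normalization, 3.15% were higher and 4.45% lower with G536S, and 3.10% higher and 3.42% lower with wild type. Under cyclic loess the shares were 3.47% and 3.95% with G536S and 3.27% and 3.10% with wild type. ID4 was among the higher and ID2 among the lower genes in all 4 of these cases. The members' median was -0.02 with G536S and 0.13 with wild type, beside 0.10 and 0.08 for all genes. The comparisons with the vector share its single array, so a low or high reading there moves both.

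Within the ID family, differences ran from -0.64 to 1.60 with G536S and from -0.55 to 1.49 with wild type, a span of 2.25 and 2.04 log2 units. The 3 feedback genes kept to -0.02 to 0.21 and 0.13 to 0.39 in the same comparisons. The G536S and wild-type arrays, compared directly without the vector array, were closer. None of the 7 members was 1.5-fold apart there, 0 higher where 2.17% of genes were and 0 lower where 1.81% were. The members ranged from -0.38 for ID1 to 0.11 for ID4, with 5 of 7 below 0 and a median of -0.10, beside 0.01 for all genes.

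**Figure D2:**
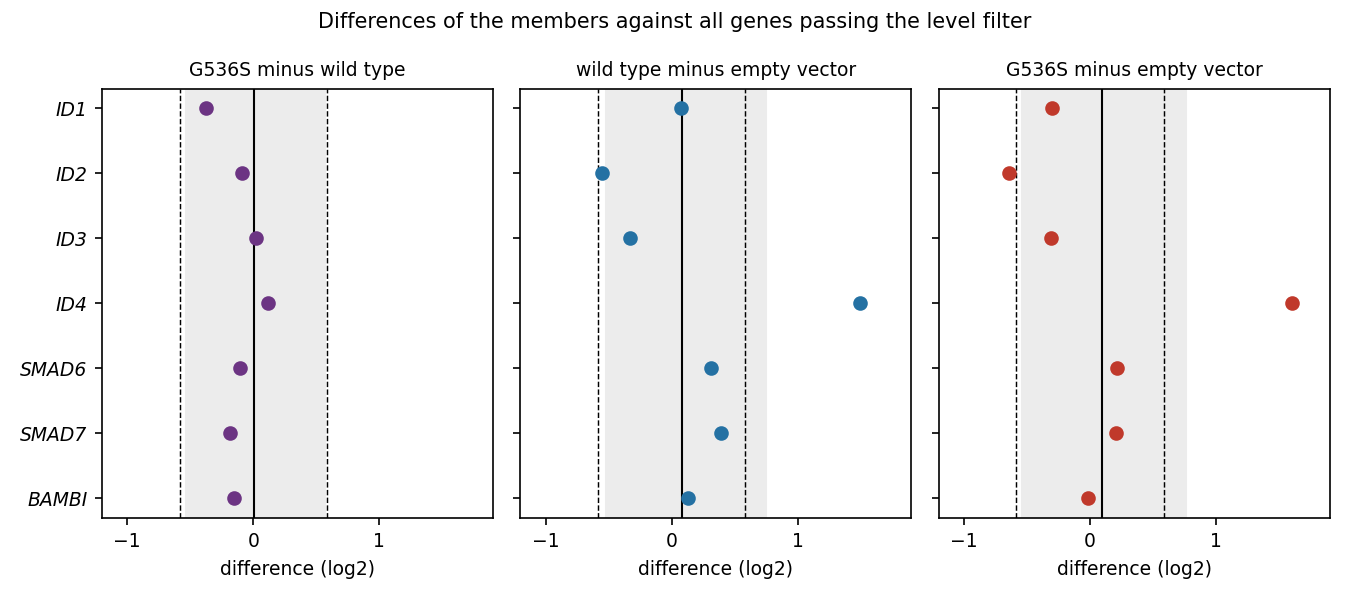
Log2 difference of each member on the x axis, in a panel for each comparison. The grey band holds the central 95% of the 11198 genes passing the level filter, the solid line is their median and the dashed lines mark 1.5-fold. ID4, at 1.60 and 1.49, and ID2, at -0.64 and -0.55, lie outside the band against the vector, and all members lie inside it between G536S and wild type.

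The genes with the pair of vector differences nearest to that of ID4 were sought among 10070 protein-coding genes, over 3 arrays. The nearest was ANO5, an anoctamin family member, at 4.29 in G536S cells, 4.46 in wild-type cells and 2.86 in empty vector cells, a distance of 0.203 log2 units. Next came FAM72D (0.382), a gene of a near-identical family whose copies can share probes, then FANCL (0.485), a Fanconi anaemia ubiquitin ligase. TC2N (0.539) and the small GTPase RAB23 (0.540) followed. For ID2 the nearest gene was UQCC5, at a distance of 0.0119. The actin bundler FSCN1 (0.0201), ENTREP1 (0.0289), BTN3A2 (0.0353) and the kinase CSK (0.0372) followed. With G536S, 183 genes had a lower difference than ID2, and 17 a higher one than ID4. Genes are thus sparser around ID4, and nothing is read from the smaller distances around ID2.

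Genes nearest to ID4 and ID2 in chromosome order were read beside them. They were taken by order among genes past the filter, whatever their distance in bases. How local the differences were was thus not tested. The 10 nearest protein-coding genes past the filter, 5 on each side of ID4 on chromosome 6, ran from -0.29 to 0.54 with G536S (median 0.23) and from 0.07 to 0.45 with wild type (median 0.24). All 10 were above 0 with wild type, and none reached 1.5-fold. Over all genes, 62.6% were above 0 with wild type, and the median was 0.10 with G536S and 0.08 with wild type. The highest single values were TPMT, at 0.54 with G536S and 0.10 with wild type, and MRS2, at 0.22 and 0.45. SOX4, a progenitor transcription factor, was the exception with G536S, at -0.29. ID4 exceeded each of these neighbours by over 1 log2 unit. Around ID2 on chromosome 2, the 10 neighbours ran from -0.19 to 0.40 with G536S (median 0.05) and from -0.25 to 0.40 with wild type (median 0.08). ID2 lay below each of them, with ADI1 the lowest of them at -0.19 and -0.25.

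**Figure D3:**
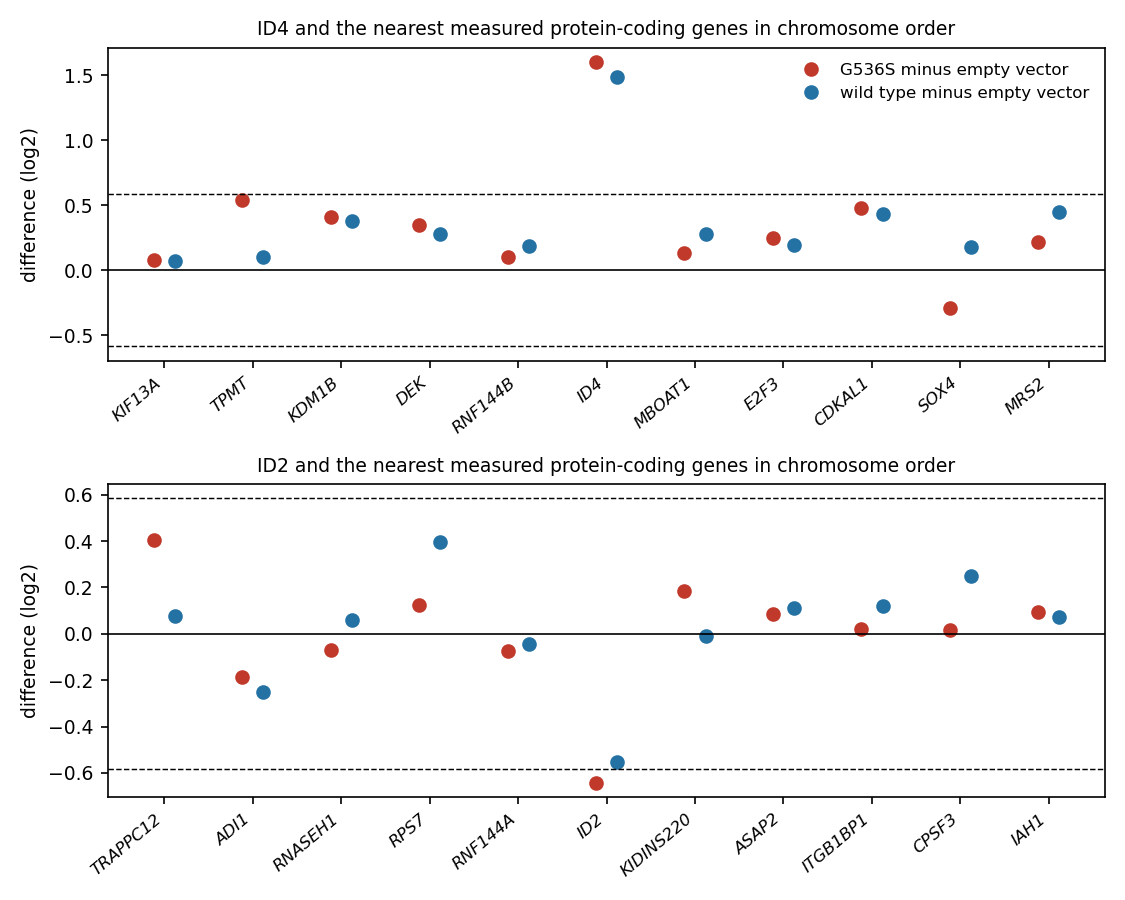
Log2 difference from the empty vector on the y axis, for ID4 (upper panel) and ID2 (lower panel) and the nearest protein-coding genes past the level filter in chromosome order, with G536S left of wild type for each gene. Dashed lines mark 1.5-fold. The neighbours of ID4 stay at or below 0.54 and those of ID2 at or above -0.25.

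The rest of the pathway was read from 6 BMP lists of 84 genes in all without the members, of which 80 were measured and 55 passed the filter. Of these 55, 5 were 1.5-fold apart in some comparison: SMAD5, MSX2, DLX2, DLX6 and NKX2-5. By comparison, 1 was higher (1.82%) and 1 lower (1.82%) with G536S against wild type, beside 2.17% and 1.81% of all genes. With wild type against the vector, 1 was higher (1.82%) and 2 lower (3.64%), beside 5.42% and 1.79%. With G536S against the vector, 1 was higher (1.82%) and 1 lower (1.82%), beside 6.07% and 2.08%. The share of all genes 1.5-fold apart in any comparison was not counted, so nothing is read from the 5. The list medians that follow are given with their range over 8 settings of scaling, probe sets, floor and level filter. They stand beside all-gene medians, as deposited, of 0.10 with G536S and 0.08 with wild type against the vector. Those all-gene medians also moved, from -0.029 to 0.13 with G536S and from -0.023 to 0.11 with wild type. The ends were quantile normalization and median centring, so a range against 0 is not one against all genes. Where a range spans 0, no direction is read from it.

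No BMP ligand or receptor past the filter was 1.5-fold apart in any comparison. Of 14 ligands measured 6 passed the filter. BMP4 read 3.07 in G536S cells, 3.28 in wild-type cells and 3.37 in empty vector cells, and BMP7 read 2.76, 3.07 and 3.18, so each was lowest with G536S and highest with the vector. BMP6 read 2.74, 2.44 and 2.54 and was highest with G536S. The ligand median was -0.17 with G536S and -0.11 with wild type against the vector, with 2 and 1 of 6 above 0, where 63.9% and 62.6% of all genes were. Over the settings the median ran from -0.36 to -0.041 with G536S and from -0.25 to -0.015 with wild type, the values nearest 0 being those of all 14 ligands without the level filter. Of the 11 receptors and co-receptors measured 8 passed. The type II receptor BMPR2 read 6.78, 6.54 and 6.75, the activin and BMP receptor ACVR2B 3.57, 3.30 and 3.30, and the co-receptor TGFBR3 3.26, 3.36 and 3.07. The receptor median was 0.08 with G536S and -0.02 with wild type, with ranges of -0.02 to 0.20 and -0.12 to 0.0055 that both span 0. BMPR1A was not analysed here.

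Secreted antagonists, which hold ligands away from receptors, were represented by 6 genes past the filter of 14 measured, with medians of 0.19 with G536S and 0.07 with wild type. Both ranges span 0, at -0.06 to 0.32 with G536S and -0.04 to 0.10 with wild type. TWSG1, a chordin partner, read 5.04, 4.75 and 4.72 in G536S, wild-type and empty vector cells, the follistatin-like FSTL1 3.96, 3.80 and 3.63, and noggin (NOG) 1.69, 1.80 and 1.62. None of the 6 was 1.5-fold apart.

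Among the 6 SMAD transducers, all past the filter, SMAD5 was the 1 that was 1.5-fold apart. This BMP-activated SMAD read 5.89 in G536S cells, 6.16 in wild-type cells and 5.42 in empty vector cells. It was higher than the vector by 0.47 with G536S and by 0.74 with wild type (1.67-fold). Its second probe set gave 3.16, 2.85 and 2.56, a difference of 0.60 with G536S and 0.30 with wild type, so the direction was shared and the order of the constructs was not. The shared partner SMAD4 read 5.76, 5.20 and 5.60, a difference of -0.39 with wild type, while its other 2 probe sets were higher with wild type by 0.15 and 0.31. SMAD2, of the TGF-beta branch, read 4.80, 4.81 and 4.88. The list median was 0.04 with either construct, and ran from -0.10 to 0.07 with G536S and from -0.09 to 0.09 with wild type.

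Intracellular modulators lay mostly above 0. Of 16 past the filter, 14 were above 0 with G536S (median 0.26) and 11 with wild type (median 0.15), and none was 1.5-fold apart. All genes had 63.9% and 62.6% above 0 in the same comparisons. The list median ran from 0.10 to 0.29 with G536S and from 0.03 to 0.18 with wild type over the settings, lowest under quantile normalization. SMURF2, a ligase that SMAD7 brings to receptors, read 6.43, 6.51 and 6.20 in G536S, wild-type and empty vector cells. The SMAD4 deubiquitinase USP9X read 7.52, 7.30 and 7.18, and the co-chaperone ligase STUB1 read 6.82, 6.66 and 6.73.

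Other target genes of BMP-SMAD signalling, developmental transcription factors for the most part, held 4 of these 5 genes. Of 13 past the filter, 3 were above 0 with G536S (median -0.15) and 4 with wild type (median -0.05). Among all genes, 63.9% and 62.6% were above 0. The medians ran from -0.26 to -0.11 with G536S and from -0.16 to -0.03 with wild type. The homeobox gene DLX2 read 4.90 in G536S cells, 5.00 in wild-type cells and 5.59 in empty vector cells, a difference of -0.69 with G536S and -0.59 with wild type. It shared the direction of ID2 and ID3. NKX2-5, a cardiac homeobox gene, read 2.55, 2.18 and 2.89, and was 1.63-fold lower with wild type. MSX2, a homeobox target used in bone and limb studies, read 1.99, 1.21 and 1.28. The G536S array alone was thus high, by 0.71 against the vector and by 0.78 against wild type. The other readings of MSX2 lay near the level filter of 1.21. DLX6 read 1.34, 2.02 and 1.49, with wild type high and a difference of -0.68 between G536S and wild type. Its G536S and empty vector readings also lay near the level filter. HEY1, a target shared with NOTCH, read 5.64, 5.70 and 5.75, and the T-box gene TBX3 5.07, 4.96 and 5.23.

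The TGF-beta side served as a contrast, since SMAD7 and BAMBI also act there. TGFB1, the founding ligand, read 4.71 in G536S cells, 4.92 in wild-type cells and 4.27 in empty vector cells, higher by 0.44 with G536S and by 0.65 with wild type. The related ligand GDF11 read 4.03, 4.04 and 4.44, and the receptor TGFBR1 3.50, 3.47 and 3.46. Of 8 target genes past the filter, BHLHE40, a helix-loop-helix repressor, was the 1 past 1.5-fold. It read 2.76 in G536S cells, 3.91 in wild-type cells and 3.79 in empty vector cells, so G536S differed by -1.16 from wild type (2.23-fold lower) and by -1.04 from the vector. SNAI2, a repressor of epithelial genes, read 6.71, 6.84 and 6.57, and the matrix protein fibronectin (FN1) differed from the vector by -0.11 with G536S and -0.10 with wild type. The target median was -0.10 with G536S and 0.05 with wild type, and both ranges span 0, at -0.20 to 0.011 with G536S and -0.07 to 0.19 with wild type.

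**Figure D4:**
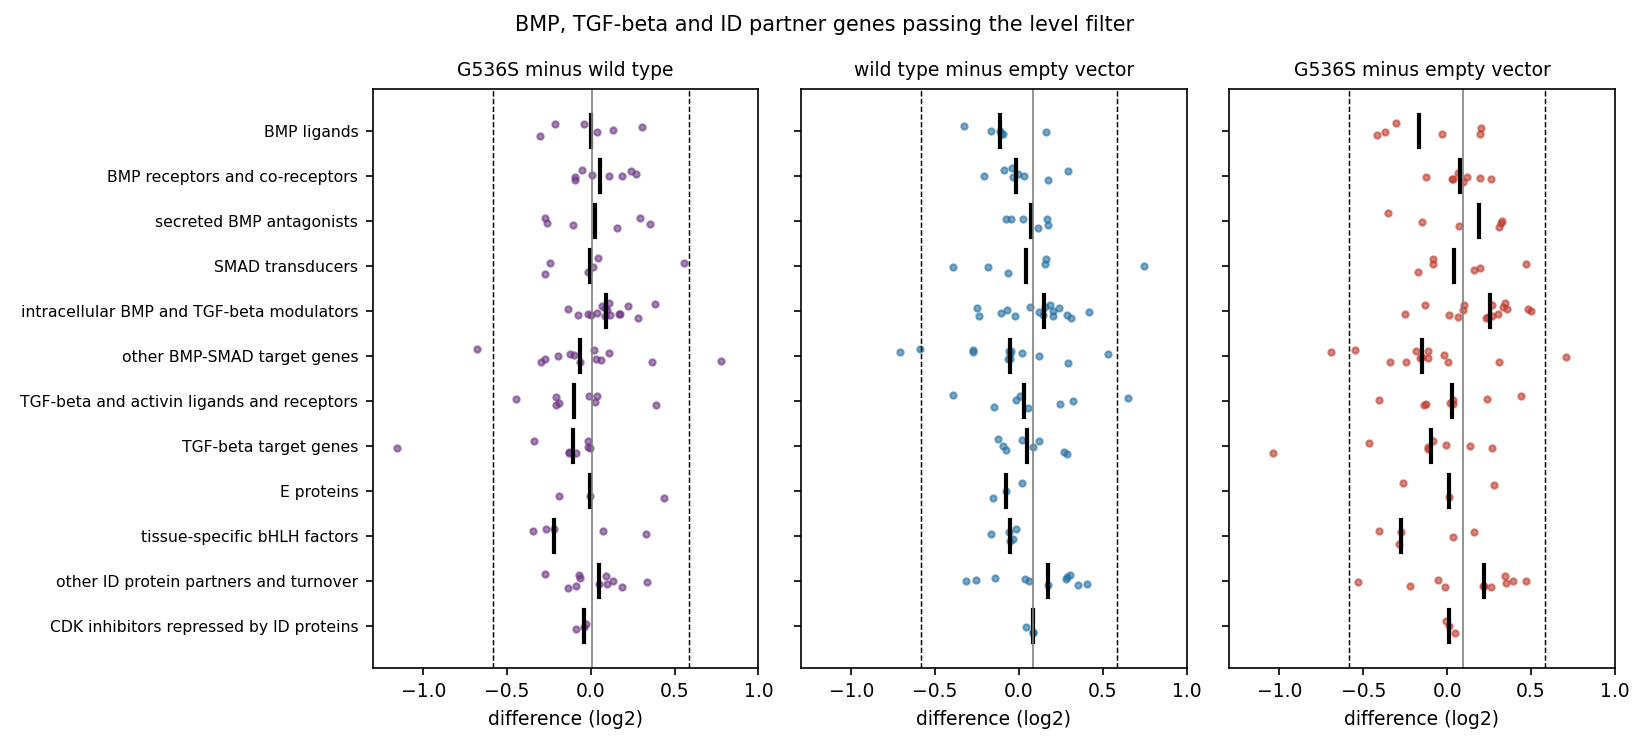
Log2 difference on the x axis for genes passing the level filter, in rows by list and in a panel for each comparison. Each point is a gene, the black bar is the list median, the grey line is the median of all genes and dashed lines mark 1.5-fold. Most points lie between the dashed lines, with BHLHE40 at -1.16 and -1.04 the lowest and MSX2 at 0.78 the highest with G536S against wild type.

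None of the partners of the ID proteins that passed the filter was 1.5-fold apart. The E proteins, which ID proteins bind, all passed the filter. TCF3 read 5.53 in G536S cells, 5.10 in wild-type cells and 5.25 in empty vector cells, TCF4 2.90, 3.09 and 3.16, and TCF12 2.79, 2.80 and 2.78. Tissue-specific bHLH factors, the usual partners of E proteins, were mostly at background, with 5 of 29 measured past the filter. HAND1, the mesoderm and heart factor, read 3.63, 3.30 and 3.46, while OLIG1 (1.12, 1.39 and 1.41) and MESP1 (1.34, 1.27 and 1.30) were close to the array medians.

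Of 13 other partners and turnover factors 11 passed the filter, with a median of 0.22 with G536S and 0.17 with wild type. It ran from 0.08 to 0.25 with G536S and from 0.05 to 0.20 with wild type, lowest under quantile normalization. The deubiquitinase USP1, which stabilises some of the ID proteins, read 7.36, 7.27 and 7.09 in G536S, wild-type and empty vector cells. The ID2 partner RB1 read 6.10, 5.91 and 5.63, and FZR1, the adaptor that targets ID proteins for degradation, read 4.63, 4.91 and 5.16. The CDK inhibitors that ID proteins are known to repress were within 1.5-fold in all comparisons. CDKN1B read 3.71, 3.74 and 3.70, CDKN2A 1.92, 1.96 and 1.87, and CDKN1A 1.71, 1.80 and 1.71.

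**Figure D5:**
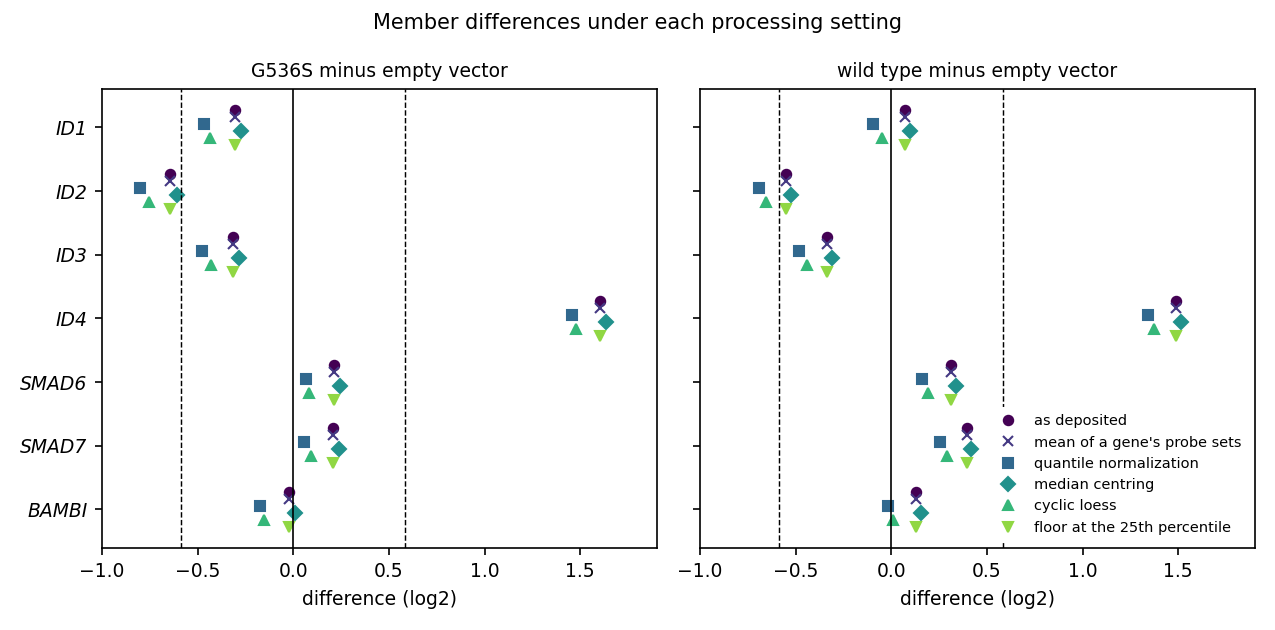
Log2 difference from the empty vector on the x axis for each member under 6 processing settings, with G536S in the left panel and wild type in the right panel. The points for the values as deposited, the mean of probe sets and the floor coincide. Dashed lines mark 1.5-fold. ID4 stays between 1.46 and 1.64 with G536S and between 1.34 and 1.52 with wild type, and ID2 crosses the 1.5-fold line with wild type under quantile normalization and cyclic loess.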

How the data were processed

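The authors deposited log2 values, 1 for each probe set, made with RMA per the submitters' processing notes. That method removes background, scales arrays to each other and combines the probes of a set. The log base was inferred from the range of values, and neither it, the RMA version nor the build is stated in the sources at hand. The table held 53617 probe sets, of which the platform annotation lists 25713, 23871 with 1 gene and 1842 with several. Symbols were updated by Entrez ID in RefSeq (22569 matched). Each gene took its probe set of highest mean, and counts used the genes whose mean reached the median gene mean (1.21). Differences were subtractions of arrays, and a gene 1.5-fold apart was counted. The robust SD is 1.4826 times the median absolute deviation. No test was possible with 1 array per group, and the number of arrays limits precision.

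Named genes were the members, TRAF7, list genes at least 1.5-fold apart, the 3 of highest mean signal in each list, and the 5 genes nearest to each member past 1.5-fold. Chromosome neighbours, second probe sets and ID2B were chosen after values were seen. Members and lists were chosen with earlier results of these data known. The alternatives were the mean of probe sets, other scalings (limma 3.58.1, R 4.3.3), a floor, other level filters and 2-fold. Other steps ran in Python 3.11.15 (pandas 2.3.3, numpy 2.4.6), and figures were drawn by matplotlib 3.10.9. Counts were checked with simulated arrays.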

Additional observations from a re-analysis of the deposited data

Results flagged for a closer look

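Among the pathway genes named above, 3 lay on opposite sides of the empty vector with the constructs and were 1.5-fold apart in some comparison. MSX2 differed from the vector by 0.71 with G536S and by -0.067 with wild type. DLX6 differed by -0.15 with G536S and by 0.53 with wild type. BHLHE40 differed by -1.04 with G536S and by 0.12 with wild type. The smaller difference of each gene lay within the robust SD of all genes, 0.276 with G536S and 0.266 with wild type. The share of all genes meeting these conditions was not counted. With 1 array per group, the difference between the constructs was not tested for any of these 3 genes. None of the 7 members met these conditions, and no group had enough arrays to look for an outlying one.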

How the results depend on the processing

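The yardstick was the robust SD over all genes, which is a spread between genes and not replicate error. Under 3 scalings (quantile normalization, median centring and cyclic loess), all 63 recomputed member differences moved by less than this yardstick. Of these, 4 changed sign, for ID1 and BAMBI values near 0. The yardstick is wider than the shifts of the median gene given below, so staying within it says little about stability. The other 2 alternatives, averaging probe sets and a floor at the 25th percentile, could not move a member, since each has 1 probe set and lies above the floor. Quantile normalization moved the median gene by -0.13 with G536S and -0.11 with wild type, and cyclic loess by -0.10 and -0.088. Relative to the median gene, ID2 as deposited was at -0.74 with G536S and -0.63 with wild type. Under quantile normalization and cyclic loess, the count of members 1.5-fold lower with wild type against the vector became 1 each, in place of 0, as ID2 reached -0.69 and -0.65. The count lower with G536S against the vector, 1 for ID2, became 0 with a level filter at the 75th percentile (2.87), which ID2 does not pass, and 0 at 2-fold. ID4 was at least 2-fold higher with both constructs under the 3 scalings. Of 252 recomputed list medians, 249 moved by less than the same yardstick and 35 changed sign. These counts include the floor, which left every list median as deposited. They also include the mean of probe sets, which changed the medians of the SMAD transducers alone. Unchanged values under those settings say nothing about stability. With the filter at the 75th percentile, the BMP ligand median between G536S and wild type became -0.26, against -0.0013, and rests on 2 genes, BMP4 and BMP7. The tissue-specific bHLH median changed sign, to 0.33 between G536S and wild type, against -0.22, and to 0.16 for G536S against the vector, against -0.28, where HAND1 is the 1 gene left. No paired analysis was possible because there is 1 array per group. Signals near the array medians limit the size of difference that can be read.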
